A study of Mus musculus with 12 samples.

Results

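Neutrophil and inflammatory myeloid markers were followed in A20 tumors through 5 genes, S100a8, Fpr2, Trem1, Camp and Cebpb, taken by symbol from a panel of 770 genes of which 750 are not reference genes. All 5 were found in the table and all were tested. A20 is a mouse B-cell lymphoma line, and its cells were implanted under the skin of female Balb/c mice. About 7 days later established tumors were injected with PBS, with a stable oil-in-water emulsion alone (SE), or with GLA-SE, which is 10 µg of the synthetic TLR4 agonist GLA in 50 µl of 2% SE and is called G100 in the study. Each group had 4 tumors, each from a different mouse, and injections were given 3 times, every other day. Tumors were collected 2 h after the last injection, so every group, PBS included, had been injected into the tumor 3 times. The age of the mice (young adults) comes from the methods of the study, which give SE at the same percentage as GLA-SE in the tumor growth experiments, and the labels give neither.

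Neutrophils and inflammatory monocytes enter tissue within hours of an inflammatory signal. Neutrophils arrive with preformed granule proteins, whose transcripts are made mainly in the bone marrow, and they keep a smaller set of transcripts, among them that of S100A8, which stay high in the mature cell. S100A8 pairs with S100A9 to form calprotectin, is released by activated myeloid cells and can signal through TLR4. FPR2 is a chemotactic receptor of neutrophils and macrophages that senses formylated peptides, serum amyloid A, annexin A1 and the cathelicidin peptide. TREM-1 is a surface receptor that amplifies Toll-like receptor responses through the adaptor DAP12 and the kinase SYK. Camp encodes cathelicidin, a peptide stored in secondary granules, and Cebpb encodes C/EBPβ, a transcription factor that is induced by inflammatory signals and acts in stress-driven production of neutrophils. In whole-tumor RNA, more cells of a type and more RNA per cell cannot be told apart.

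The sequence ahead of the transcription start was read for each member from RefSeq on the mouse build GRCm38.p6 (for Trem1, ahead of a transcript that begins a little inside the outermost start of the gene), since NF-κB, AP-1, PU.1 and C/EBP are known regulators of myeloid transcription. A total of 4 short motifs were searched on both strands of the 250 bases before the start: TTGCNNAA for C/EBP, GGGA and CC with any 4 bases between them for NF-κB, TGANTCA for AP-1 and GAGGAAG for PU.1. The promoters of S100a8 and Cebpb are shown because they held the matches, and that of Fpr2 because Fpr2 separated GLA-SE from SE. Capitals mark the matches, and the bases run 5′ to 3′ on the strand of the gene, which is the plus strand for all 3. S100a8 lies at chr3:90668821-90669070, Cebpb at chr2:167688665-167688914 and Fpr2 at chr17:17887574-17887823.
S100a8: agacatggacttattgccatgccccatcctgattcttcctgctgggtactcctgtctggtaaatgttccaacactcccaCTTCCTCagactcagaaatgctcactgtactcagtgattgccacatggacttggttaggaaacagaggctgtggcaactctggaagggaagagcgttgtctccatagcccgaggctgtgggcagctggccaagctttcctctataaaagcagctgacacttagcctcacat
Cebpb: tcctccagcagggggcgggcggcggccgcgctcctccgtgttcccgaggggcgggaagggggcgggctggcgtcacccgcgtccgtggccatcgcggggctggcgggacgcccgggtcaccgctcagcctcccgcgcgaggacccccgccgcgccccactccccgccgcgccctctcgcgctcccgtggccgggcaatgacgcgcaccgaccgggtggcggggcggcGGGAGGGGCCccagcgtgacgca
Fpr2: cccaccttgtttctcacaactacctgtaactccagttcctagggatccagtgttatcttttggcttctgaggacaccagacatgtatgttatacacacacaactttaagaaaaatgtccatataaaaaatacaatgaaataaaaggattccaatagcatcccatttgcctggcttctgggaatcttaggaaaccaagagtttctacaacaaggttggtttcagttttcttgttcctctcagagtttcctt

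The S100a8 window held the PU.1 letters on the reverse strand, from -171 to -165 relative to the start. The Cebpb window, of which 81.6% of bases are G or C, held the NF-κB letters from -23 to -14. No match to these letters was found in the windows of Fpr2, Trem1 (chr17:48232489-48232738, plus strand) or Camp (chr9:109849457-109849706, minus strand). Over 32851 promoters of the same length, the PU.1 letters were in 10.6%, the NF-κB letters in 17.6%, the C/EBP letters in 9.56% and the AP-1 letters in 6.75%. These matches describe the letters only.

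Transcripts were counted directly, by barcoded probes and without amplification, on the nCounter PanCancer Immune panel for mouse. Totals per tumor ran from 812522 to 1086462 counts in PBS, 810260 to 1268512 in SE and 1186487 to 1612415 in GLA-SE tumors. Of the 20 reference genes 16 were stable enough to set the scale, by their geometric mean, and values below are such reference-scaled counts unless called deposited. The reference genes were lowest in SE replicate 4, with a geometric mean of 927 counts against 1501 to 2806 in the other SE tumors. On this scale the median of the 750 genes was 0.90 log2 units higher in GLA-SE than in PBS, 0.51 higher in SE than in PBS and 0.25 higher in GLA-SE than in SE, so fold changes are also given relative to these medians. Markers of B cells, the lineage of A20, summed to 14090 to 23283 in all 12 tumors. Counts of different genes depend on their probes and were not compared as levels.

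Compared with PBS, 4 of the 5 markers rose in GLA-SE tumors: S100a8, Fpr2, Trem1 and Cebpb. The same test called 68.4% of the panel higher, so the number of markers that rose is near the panel's share. The same 4 were called without GLA-SE replicate 3. Scaled counts of all 5 markers lay higher without overlap, as did those of 63.7% of the panel. Adjusted p values are from edgeR's quasi-likelihood test with Benjamini-Hochberg adjustment over 750 genes. The exact permutation test of 4 against 4 tumors is two-sided and cannot give a p under 0.0286.

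S100a8 stood at 70.1, 81.3, 99.4 and 79.5 in PBS replicates 1 to 4 and at 551, 774, 7805 and 1741 in GLA-SE replicates 1 to 4. Every GLA-SE tumor lay above every PBS tumor, and GLA-SE tumors spread over 14.2-fold among themselves while PBS tumors spread over 1.42-fold. The mean was 2718 ± 3431 (SD, n = 4) against 82.6 ± 12.2 (SD, n = 4). S100a8 rose by 5.04 ± 0.89 (SE) log2 units (adjusted p = 0.00160, exact p = 0.0286), 4.14 above the panel median, which placed it 2nd of 750 genes. GLA-SE replicate 3 carried much of this size, and without it the rise was 3.62 log2 units and was still called.

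Fpr2 stood at 321, 274, 305 and 372 in PBS tumors and at 875, 1001, 2823 and 1487 in GLA-SE tumors. The groups did not overlap, and the lowest GLA-SE tumor was well above the highest PBS tumor. The mean rose from 318 ± 41.0 to 1546 ± 891 (SD, n = 4 each), by 2.28 ± 0.36 (SE) log2 units (adjusted p = 0.00103, exact p = 0.0286). This was 1.38 above the panel median. Leaving out each tumor in turn gave 1.82 to 2.48, called each time.

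Trem1, the receptor that amplifies TLR responses, gave few counts: the deposited values were 14 to 23 in PBS and 27 to 171 in GLA-SE tumors. After scaling it stood at 19.0, 21.5, 12.4 and 11.1 in PBS and at 28.1, 28.1, 189 and 63.4 in GLA-SE tumors. The groups did not overlap, although GLA-SE replicates 1 and 2 exceeded the highest PBS tumor by only a few counts. Trem1 rose by 2.27 ± 0.65 (SE) log2 units (adjusted p = 0.0138, exact p = 0.0286), 1.37 above the panel median. Without GLA-SE replicate 3 the rise was 1.33. The call was lost with the panel median as the scale (0.84) and with TMM scaling (1.27).

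Cebpb, the transcription factor, stood at 703, 565, 692 and 647 in PBS tumors and at 1175, 1576, 2809 and 1320 in GLA-SE tumors. All GLA-SE tumors were above all PBS tumors, and PBS tumors differed little from each other. The mean rose from 652 ± 62.7 to 1720 ± 745 (SD, n = 4 each), by 1.40 ± 0.27 (SE) log2 units (adjusted p = 0.00222, exact p = 0.0286). This was 0.50 above the panel median. Where tumors were scaled to the panel median in place of the reference genes, the Cebpb difference was 0.05 log2 units and was not called (adjusted p = 0.845).

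Camp, the granule peptide, gave few counts: its deposited count was 4 to 18 in the 12 tumors and never reached the 20 counts that served as a low-count threshold. For the lowest and highest tumors, SE replicate 3 with 4 counts and GLA-SE replicate 3 with 18, exact Poisson 95% intervals, which cover counting error only, were 1.09 to 10.2 and 10.7 to 28.4 counts. Scaled values were 7.58, 7.47, 10.2 and 10.3 in PBS and 11.6, 10.4, 19.9 and 13.3 in GLA-SE tumors. The groups did not overlap, with a gap between the closest tumors far inside these intervals. The difference was 0.61 ± 0.26 (SE) log2 units (adjusted p = 0.0610, exact p = 0.0286), 0.29 less than the panel's median shift. Its direction depended on the scaling: with the panel median as the scale the value was -0.69 and passed the test (adjusted p = 0.0439).

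**Figure D1:**
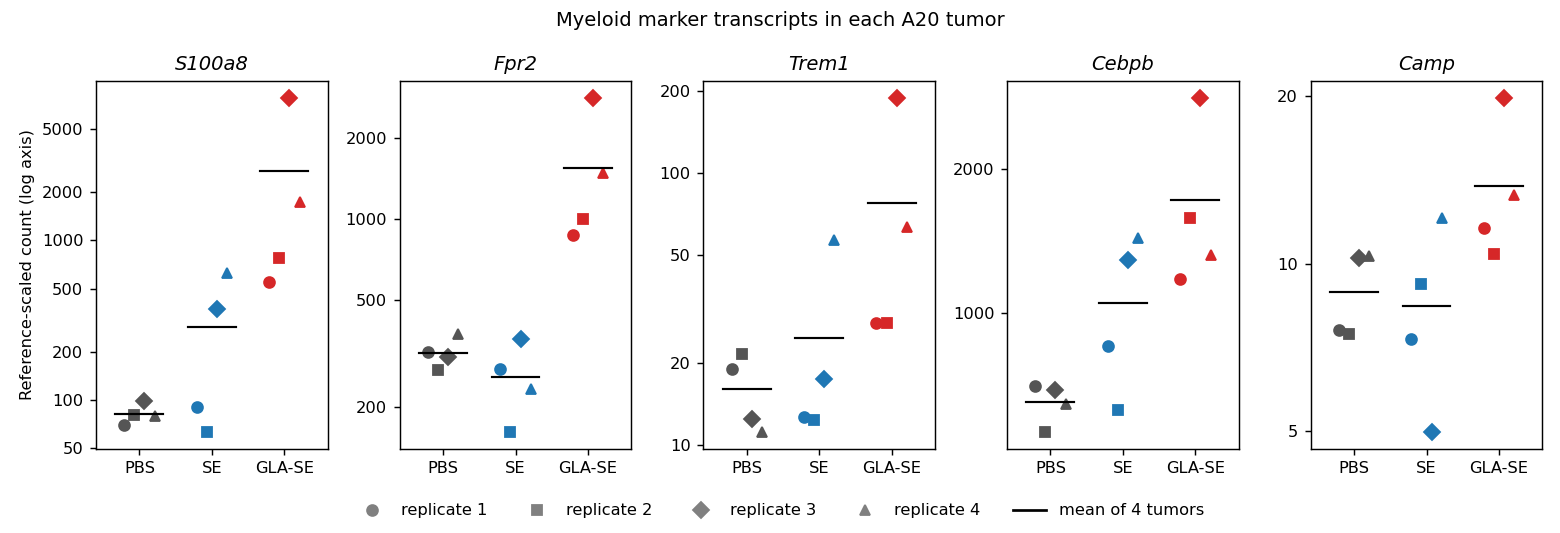
Reference-scaled counts of the 5 markers (log axes, 1 panel per gene, each with its own range) in the 12 tumors; point shape gives the replicate number, which does not pair tumors across groups, and bars give means. GLA-SE replicate 3 is the highest tumor for every marker, and Fpr2 in SE tumors stays at or below 372, the highest PBS value.

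The order of the GLA-SE tumors was the same for the genes with the widest spread. Replicate 3 was highest for all 5 markers, and for S100a8, Fpr2 and Trem1 the order from high to low was replicate 3, 4, 2, 1. For Cebpb replicate 2 came ahead of replicate 4. The highest tumor exceeded the next by 4.48-fold for S100a8, 2.98-fold for Trem1, 1.90-fold for Fpr2, 1.78-fold for Cebpb and 1.49-fold for Camp. GLA-SE replicate 3 also had the highest sum of the neutrophil-attracting chemokines and G-CSF, 2984 against 323 in the lowest GLA-SE tumor, and its Cd14 was 6806 against a GLA-SE median of 829.

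In SE tumors no marker passed the test against PBS, and by edgeR 0% of the panel did. At an unadjusted p under 0.05, edgeR gave 2 of the 5 markers, S100a8 and Cebpb, and 134 of 750 genes. DESeq2 called 0 markers, with 53 panel genes on the reference gene scale and 12 on its own. On simulated counts the test recovered 12% of 2-fold and 67% of 4-fold changes, so changes of these sizes could be missed. The simulation gave SE and PBS tumors a common spread for each gene, estimated over both groups, and drew genes independently. It did not carry differences in spread between the groups.

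S100a8 in SE replicates 1 to 4 stood at 90.6, 63.4, 371 and 625. Replicates 1 and 2 were within or close to the PBS range of 70.1 to 99.4, and replicates 3 and 4 were above it. The difference was 1.79 ± 0.71 (SE) log2 units (unadjusted p = 0.0345 and adjusted p = 0.256 by edgeR, exact p = 0.286). Without SE replicate 4 it was 1.08.

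Cebpb in SE tumors stood at 853, 627, 1289 and 1436, with 3 of 4 above every PBS tumor. Its difference was 0.69 log2 units, with a 95% interval of 0.08 to 1.30 before adjustment (adjusted p = 0.256, exact p = 0.114). Fpr2 in SE tumors stood at 276, 162, 357 and 234 and its group mean was 257 ± 81.9 (SD, n = 4), so SE and PBS overlapped. The Fpr2 difference was -0.31 log2 units with a 95% interval of -0.93 to 0.32 (adjusted p = 0.451), 0.82 below the panel median, which placed Fpr2 728th of 750.

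Trem1 in SE tumors stood at 12.7, 12.3, 17.4 and 56.5, so a single tumor, replicate 4, was above PBS. The Trem1 difference of 0.57 log2 units (adjusted p = 0.496) became -0.18 without that tumor. Camp stood at 7.33, 9.20, 4.98 and 12.1, within its counting error of PBS, with a difference of -0.12 log2 units (adjusted p = 0.771).

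SE replicates 3 and 4 stood apart from SE replicates 1 and 2 in more than these markers. Endothelial and fibroblast markers summed to 3407, 4249, 27847 and 119493 in SE replicates 1 to 4, against 3981 to 9089 in PBS tumors. Monocyte and macrophage markers summed to 2895, 2392, 11772 and 18943, against 2917 to 4363 in PBS tumors. In SE replicate 4 most of the endothelial and fibroblast sum came from Col3a1 (90245) and Col1a1 (24479). Pecam1, of the same list, was 1840 in that tumor against 281 to 437 in PBS tumors. B cell markers had their lowest sum of all tumors in SE replicate 4. On scaled counts that tumor was also the highest of its group for S100a8, Trem1, Camp and Cebpb, and Fpr2 was highest in SE replicate 3. The deposited counts of SE replicate 4 were the highest of the group for S100a8 (310) and Trem1 (28) but not for Camp (6) or Cebpb (712). Without SE replicate 4, the difference from PBS was 1.08 log2 units for S100a8, 0.50 for Cebpb, -0.26 for Fpr2, -0.18 for Trem1 and -0.30 for Camp. Without SE replicate 3 it was 1.64 for S100a8, 0.58 for Cebpb, -0.51 for Fpr2, 0.70 for Trem1 and 0.051 for Camp. The part of the other cell types in these values was not tested.

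Comparing GLA-SE with SE asks what GLA added to the emulsion. Fpr2 was the marker that rose in this comparison, where 2.13% of the panel did. Its GLA-SE tumors, 875 to 2823, were all above its SE tumors, 162 to 357, as was so for 14.7% of the panel. Fpr2 rose by 2.59 ± 0.44 (SE) log2 units (adjusted p = 0.0229, exact p = 0.0286), 2.34 above the panel median, and ranked 11th of 750. The size held when tumors were left out in turn, at 2.12 to 2.79, but the call did not: the adjusted p ran from 0.0249 to 0.0812 and missed 0.05 without GLA-SE replicate 2, GLA-SE replicate 4, SE replicate 1, SE replicate 2 or SE replicate 3. It was also not called under panel median scaling (1.62) or TMM scaling (2.06).

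S100a8 had the larger difference in this comparison, 3.25 ± 1.09 (SE) log2 units and 3rd of 750, yet did not pass the test (adjusted p = 0.159, exact p = 0.0571). The groups overlapped because SE replicate 4, at 625, exceeded GLA-SE replicate 1, at 551. The difference was 1.83 without GLA-SE replicate 3 and 3.96 without SE replicate 4. It passed in 4 of 10 other settings: with all 12 tumors in 1 fit, with either DESeq2 scale, and on deposited counts without rescaling. Of the 8 edgeR fits that left out 1 tumor, it passed in 0 (adjusted p = 0.0702 to 0.456).

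The remaining markers did not pass in GLA-SE against SE. Trem1 differed by 1.68 log2 units (95% interval -0.17 to 3.53, adjusted p = 0.312), or 0.74 without GLA-SE replicate 3 and 2.45 without SE replicate 4. Cebpb differed by 0.71 (95% interval -0.13 to 1.55, adjusted p = 0.351), and Camp by 0.74 (95% interval -0.03 to 1.50, adjusted p = 0.287). These intervals leave room for differences of several-fold in Trem1. PBS tumors are the controls of both PBS comparisons, and each treated group enters 2 comparisons, so the 3 sets of values are not independent of each other.

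**Figure D2:**
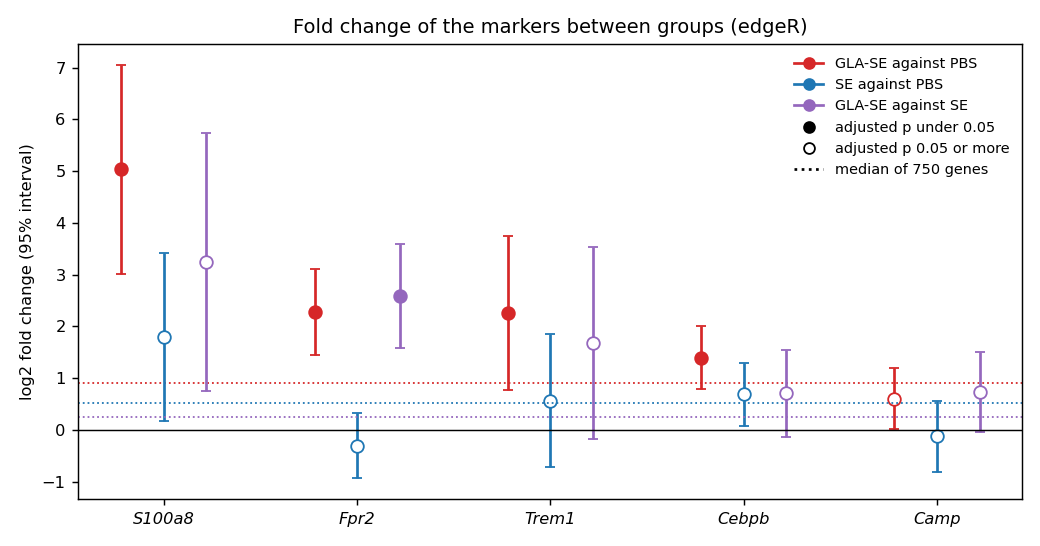
Fold change (log2, edgeR) of each marker in the 3 comparisons with unadjusted 95% intervals; filled points have an adjusted p under 0.05 and dotted lines give the median of the 750 genes in the colour of the comparison. S100a8 has the largest values and the widest intervals, and Fpr2 is the marker with filled points against both PBS and SE.

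Ratios of 2 markers within a tumor need no scaling, and they were taken from the deposited counts after the values had been seen, for the 6 pairs of the 4 markers other than Camp. Fpr2 over Cebpb was 0.457, 0.484, 0.441 and 0.575 in PBS, 0.324, 0.258, 0.277 and 0.163 in SE, and 0.745, 0.635, 1.01 and 1.13 in GLA-SE tumors. The 3 groups did not overlap, with SE lowest and GLA-SE highest, and SE replicate 4 was at the far end of its own group. On the log2 scale the ratio was 0.81 higher in GLA-SE and 0.97 lower in SE than in PBS (mean log2 ratio -1.04 ± 0.17 in PBS, -2.01 ± 0.43 in SE and -0.23 ± 0.38 in GLA-SE, SD, n = 4 each). Since no scaling enters, this order of the groups does not depend on the scale.

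S100a8 over Cebpb was 0.0997 to 0.144 in PBS, 0.101 to 0.435 in SE and 0.469 to 2.78 in GLA-SE tumors, so that GLA-SE lay above both other groups. S100a8 over Fpr2 was 0.214 to 0.325 in PBS, 0.328 to 2.67 in SE and 0.629 to 2.76 in GLA-SE tumors, and both injected emulsions were above PBS while overlapping each other. Of the 6 ratios, 4 were without overlap in GLA-SE against PBS, 2 in SE against PBS and 2 in GLA-SE against SE. Because the pairs share genes and were looked at after the fact, these counts carry no test. Ratios of other panel genes were not taken, so whether such separation is more frequent among these pairs than over the panel was not tested.

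**Figure D3:**
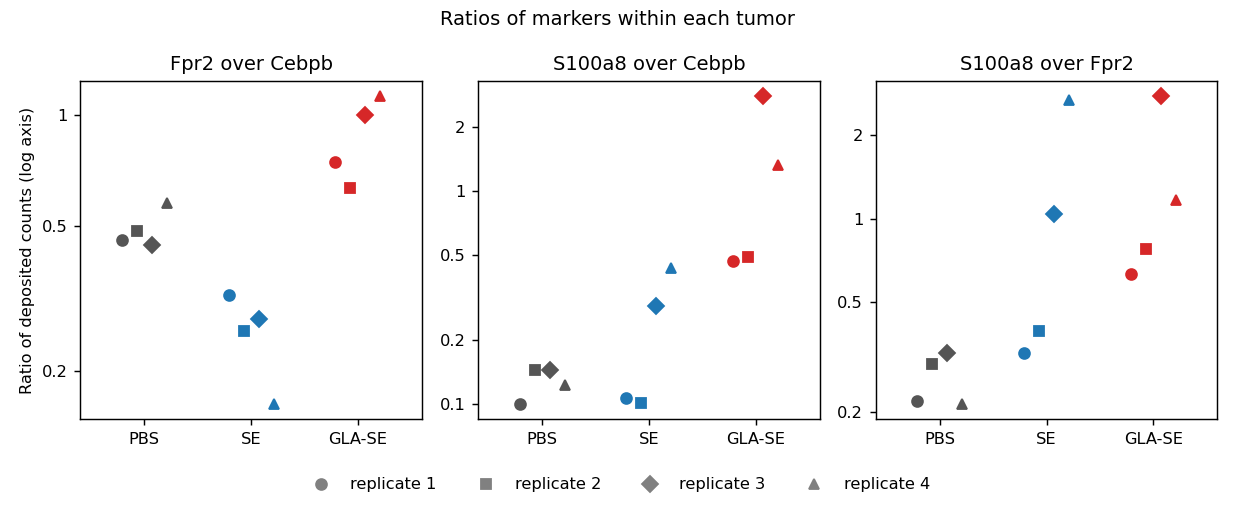
Ratio of the deposited counts of 2 markers in each of the 12 tumors (log axes), with point shape giving the replicate number. Fpr2 over Cebpb separates all 3 groups, from 0.163 to 0.324 in SE and 0.441 to 0.575 in PBS to 0.635 to 1.13 in GLA-SE.

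Other genes of the same biology were read from lists, beginning with those that define neutrophils. Each count in GLA-SE against PBS is to be read against the panel, where 68.4% of genes were called higher on the reference gene scale, and where 61 genes were called higher and 307 lower of 750 on the panel median scale. Of 8 neutrophil surface receptors, 7 rose in GLA-SE against PBS and 0 fell, with a median of 2.11 log2 units against 0.90 over the panel. They included Cxcr2, the receptor for the ELR chemokines, at 3.21, C5ar1, the receptor for the anaphylatoxin C5a, at 2.55, Fcgr4 at 2.47 and Csf3r, the G-CSF receptor, at 2.23. Cxcr1 was the remaining gene, with a mean under 20 counts. Without GLA-SE replicate 3 the list still had 7 genes called, with a median of 1.50, and with the panel median as the scale 3 rose and 1 fell.

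The 6 granule genes gave another picture. Lcn2, which encodes the siderophore-binding protein lipocalin 2 and is also made by other cells in inflammation, rose by 3.74 log2 units, and it was the sole granule gene to rise. Mpo, myeloperoxidase, averaged 36.6 ± 5.27 in PBS and 35.9 ± 8.26 in GLA-SE tumors (SD, n = 4 each), with a difference of -0.02 log2 units (adjusted p = 0.921). Elane, Ctsg and Ltf, like Camp, had mean counts under 20, where counting error limits what can be seen. No background of the probes was estimated, so counts this low were not told apart from it. The list median was 0.39, below that of the panel, and with the panel median as the scale 5 of the 6 fell, beside 307 of 750 panel genes. By these measures the tumors that gained S100a8, Fpr2 and neutrophil receptor transcripts did not show a called gain in Mpo, Elane, Ctsg, Ltf or Camp on the reference gene scale. In SE tumors Lcn2 ranged from 66.6 to 3453, the last in replicate 4.

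Of 6 neutrophil-attracting chemokines and G-CSF, 5 rose in GLA-SE against PBS, with a list median of 2.86 log2 units: Cxcl1 by 3.96, Cxcl2 by 3.37, Cxcl5 by 3.01 and Cxcl3 by 2.71, besides Csf3, which encodes G-CSF. Ppbp did not pass. Without GLA-SE replicate 3 the same number was called, with a median of 1.62, and with the panel median as the scale only Cxcl1 was. Cxcl3 overlapped between the groups: GLA-SE replicate 1, at 31.9, lay within the PBS range of 29.0 to 37.3 (exact permutation p = 0.114). Cxcl1 and Cxcl2 gave few deposited counts in PBS tumors, 16 to 25 and 13 to 17. In GLA-SE replicate 2 the deposited count of Cxcl2 was 15. The other listed ligands of FPR2 had a median of 0.47: Anxa1, annexin A1, rose by 0.65, less than the panel median, and Saa1 did not pass.

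Signaling partners of the markers, apart from Cd14, had values close to or below the panel median. Of the TREM-1 chain, Syk rose by 0.98 and Card9 by 0.88 log2 units while Bcl10 did not pass. All 4 genes of the TLR4 complex that S100A8 can engage rose on the reference gene scale, Cd14 by 3.71, Myd88 by 0.81, Ly96 by 0.79 and Tlr4 by 0.52. With the panel median as the scale Cd14 was still higher by 2.21 and the other 3 were called lower, so the direction of Myd88, Ly96 and Tlr4 depends on the scale.

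Genes whose promoters C/EBPβ is known to bind all rose, 7 of 7 beside 68.4% of the panel, with a median of 2.74 log2 units against 0.90. They included Il1b, the inflammatory cytokine, by 5.20, Ptgs2, the prostaglandin-forming enzyme COX-2, by 4.29, Il6 by 4.08 and Nos2, the inducible nitric oxide synthase, by 2.74. Csf3 is in both this list and that of the chemokines. The median was 1.84 without GLA-SE replicate 3, with all 7 still called, and 1.30 with the panel median as the scale, with 4 called. That Cebpb itself rose beside these genes is a description, and the part of C/EBPβ in them was not tested.

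Markers of other cells were called higher in shares both above and below the 68.4% of the panel. Monocyte and macrophage markers rose in 9 of 10 genes, with a median of 1.54 log2 units and sums of 9341 to 13268 in GLA-SE against 2917 to 4363 in PBS tumors. Endothelial and fibroblast markers rose in 8 of 8 (median 1.06), mast cell and eosinophil markers in 4 of 5 (1.00), NK cell markers in 3 of 4 (1.34) and T cell markers in 4 of 8 (0.84), of which 1 was called without GLA-SE replicate 3. With the panel median as the scale, 2 monocyte and macrophage markers rose and 1 fell, 1 NK cell marker fell, and edgeR called 0 T cell, mast cell and eosinophil, or endothelial and fibroblast markers. B cell markers had 0 genes higher and 2 lower, Ms4a1 (CD20) by -0.44 and Cd79b by -0.41, and all 8 fell with the panel median as the scale. S100a8, Fpr2, Trem1 and Cebpb are made by monocytes and macrophages as well as by neutrophils. The study also reports that GLA induced immune genes in cultured A20 cells themselves. The part of each cell type, A20 cells included, in the rise of the markers was not tested.

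In SE against PBS edgeR called 0 genes in each of these lists, with 0 to 2 genes a list at an unadjusted p under 0.05, and DESeq2 on the reference gene scale called at most 1 gene in a list. The list medians were 1.06 log2 units for the neutrophil receptors, 0.43 for the chemokines and G-CSF, 0.41 for the granule genes and 1.28 for monocyte and macrophage markers, beside 0.51 over the panel. In GLA-SE against SE, Mmp9, a gelatinase of neutrophil tertiary granules that macrophages also make, rose by 1.72 (adjusted p = 0.0229), and Arg1, arginase 1, by 2.84 (adjusted p = 0.00777), and no other listed gene passed. The SE against PBS difference was -1.31 for Mmp9, without overlap (adjusted p = 0.256), and -1.08 for Arg1, with overlap (adjusted p = 0.311). Mmp9 in GLA-SE against PBS differed by 0.41 (adjusted p = 0.258). The neutrophil-attracting chemokines and G-CSF had a median of 2.20 in this comparison with 0 called by edgeR, 4 of 6 at an unadjusted p under 0.05 and 4 called by DESeq2 on the reference gene scale.

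**Figure D4:**
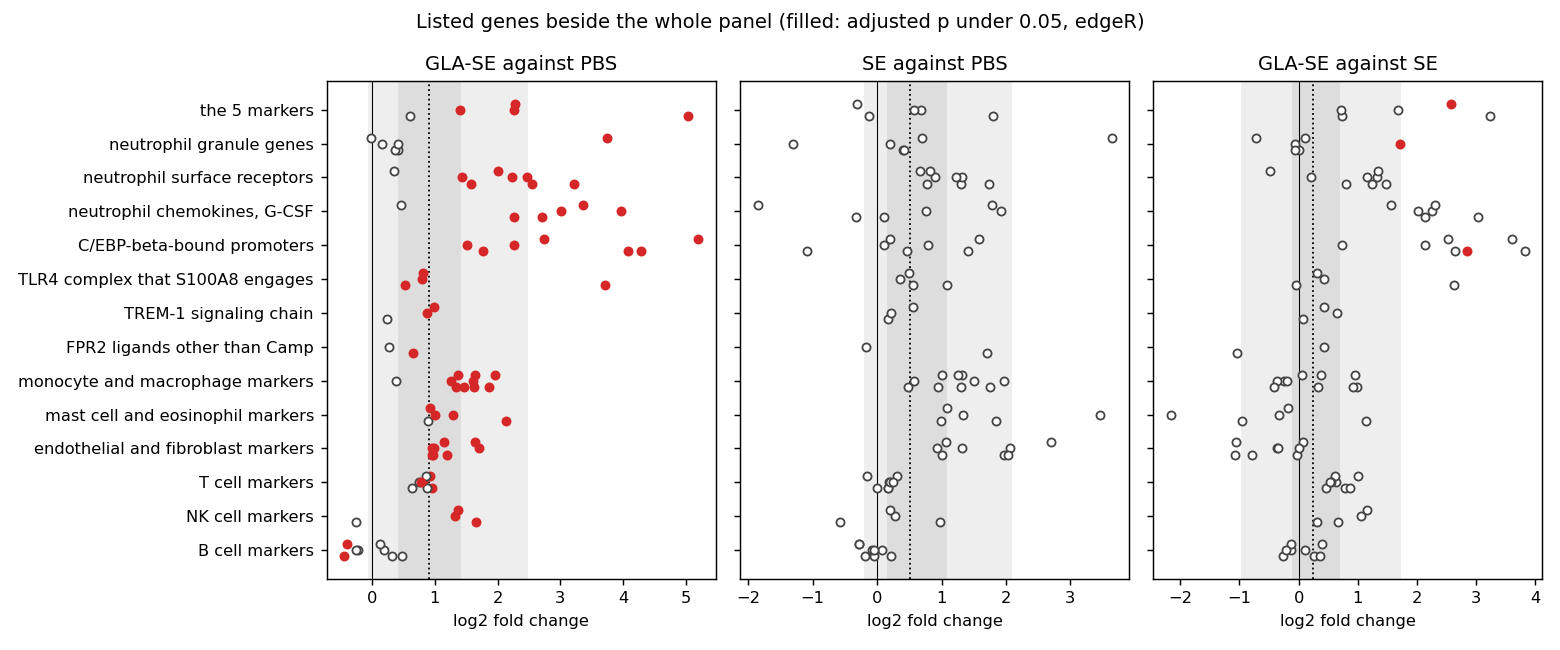
Fold change (log2) of each listed gene in the 3 comparisons, filled red where the adjusted p by edgeR was under 0.05; grey bands hold the middle 50% (dark) and 90% (light) of the 750 panel genes and the dotted line is their median. In GLA-SE against PBS the surface receptors, chemokines and C/EBPβ-bound genes lie mostly to the right of the panel median and 5 of 6 granule genes lie to its left.

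The panel genes nearest to S100a8, Fpr2, Trem1 and Cebpb over the 12 tumors were found by the root mean square difference of centred log2(scaled count + 1), among 669 genes with a mean of at least 20 counts. S100a8, whose own root mean square about its mean was 2.12, was nearest to Il1b (0.52), Oasl1 (0.57) and Il6 (0.67). Fpr2 (own value 1.19) was nearest to Cd80, Mefv and Gzmb, at 0.39, 0.40 and 0.41. Trem1 (1.14) was nearest to Csf3 at 0.30, Csf3r at 0.41 and Cxcl5 at 0.44.

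Cebpb, with a smaller spread of 0.67, was nearest to Sbno2 and H2-T23, both at 0.16, and to Cd83 at 0.18. Camp varied by 0.44 in all. No marker was among the genes named as nearest to another, but Camp, with a mean count of 10.5, was too low to be named. Between markers other than Camp the measure ran from 0.68 for Trem1 and Cebpb to 1.50 for S100a8 and Cebpb. It is not scaled to the spread of a gene, so pairs with S100a8 come out large. All points share the 12 tumors and their scaling, so likeness here includes any factor of a tumor that moved both genes.

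The choice of scale and of tumors moved the size of every marker. Under the scalings tried, the GLA-SE against PBS difference was called for S100a8 and Fpr2 each time, with lowest values of 3.53 and 0.92 log2 units under the panel median scale. Trem1 was not called under the panel median scale (0.84) or TMM (1.27), and neither was Cebpb (0.05 and 0.44). In SE against PBS none was called under any setting.

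**Figure D5:**
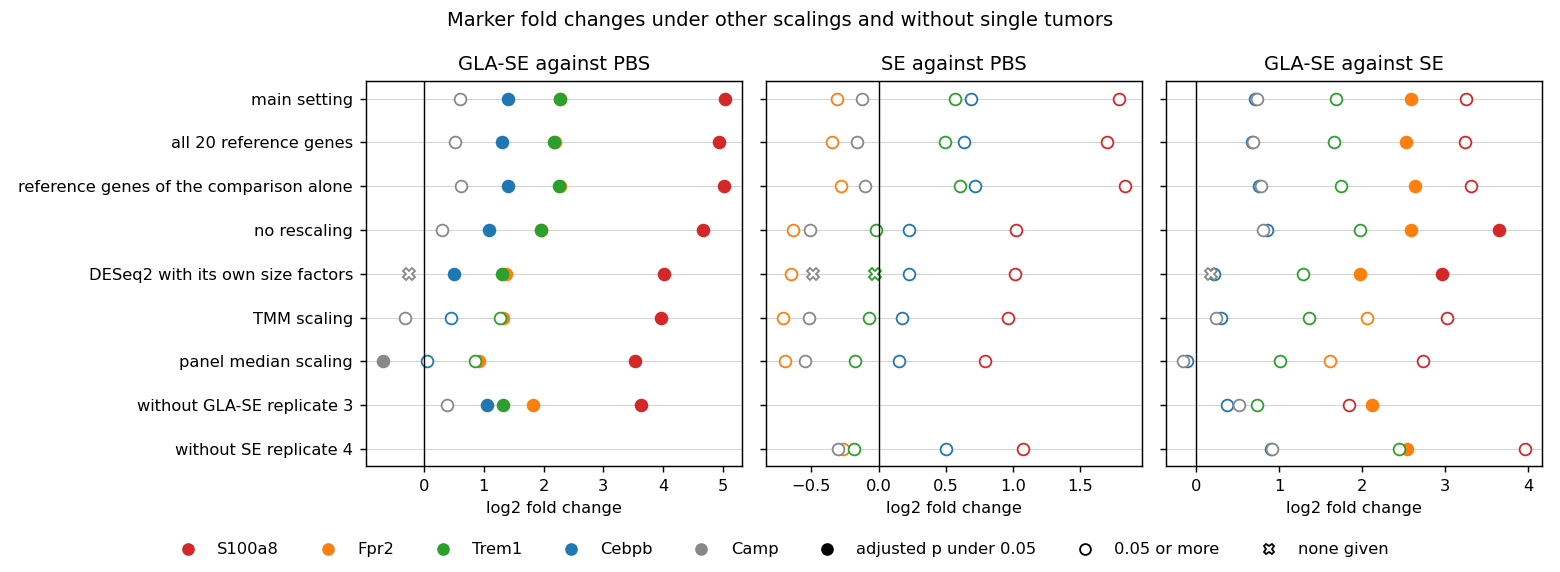
Fold change (log2) of the 5 markers in the 3 comparisons under 6 other scalings and without 1 tumor; filled points have an adjusted p under 0.05, crosses mark values for which DESeq2 gave no adjusted p, and lines stay empty where the left-out tumor is not in the comparison. S100a8 is the rightmost marker in each line drawn for GLA-SE against PBS, from 3.53 to 5.04, and Camp changes sign.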

How the data were processed

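RNA of 12 A20 tumors, 4 a group, was measured on the nCounter PanCancer Immune panel for mouse. The authors deposited whole-number counts of barcoded probes for 770 genes. Their methods name normalization in nSolver, but totals and reference genes of the deposited counts differ between tumors, so these were treated as raw. No genome build applies to them. Depth was 810260 to 1612415 counts per tumor. No deposited column was left unused, and no background of the probes was estimated or subtracted.

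From these counts, geNorm over all 12 tumors kept 16 of 20 reference genes, whose geometric mean scaled each tumor. The other 750 genes were compared, without a count filter or covariates, by edgeR 4.0.16 (quasi-likelihood, R 4.3.3) in each pair of groups, 8 tumors a fit, with Benjamini-Hochberg adjustment and a threshold of 0.05, beside exact permutation tests over 70 assignments (scipy 1.17.1). Groups came from the sample labels. On simulated counts with 200 of 750 genes changed, GLA-SE against PBS recovered 64% of 2-fold and 98% of 4-fold changes, with 4.71% of calls on unchanged genes. GLA-SE against SE recovered 8% and 55%, with 5.97%. The simulated counts were fitted with the scaling factors that made them, and genes changed in both directions. These shares therefore do not cover errors from the choice of scale.

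Alternatives were other reference gene sets, panel median and TMM scaling, a filter of 20 counts in at least 4 tumors, all 12 tumors in 1 fit, a replicate block, DESeq2 1.42.0 and leaving out each tumor. The last setting, deposited counts left without any rescaling, was not planned and was added after the data were seen.

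Members and lists were chosen with earlier results of these data known. Besides the members, at most 4 genes a list and comparison were named, those with the largest change among the called, or the 2 with the highest mean count where none was. The granule genes, the list genes that did not pass, Csf3 and Cd14 in single tumors were named after their values were seen. The lists cover neutrophil granule genes, neutrophil receptors, chemokines with G-CSF, the TREM-1 chain, FPR2 ligands, the TLR4 complex, C/EBPβ-bound genes, and markers of monocytes and macrophages, B, T and NK cells, mast cells and eosinophils, and endothelium and fibroblasts. All 5 members matched RefSeq by symbol. Promoter sequences were from RefSeq (GRCm38.p6). Figures used matplotlib 3.10.9. Some items that the naming rule picks are not reported here.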

Additional observations from a re-analysis of the deposited data

Results flagged for a closer look

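S100a8 in GLA-SE replicate 3 stood at 7805, far from the other GLA-SE tumors at 551 to 1741. Trem1 in SE replicate 4 stood at 56.5 (28 deposited counts), far from the other SE tumors at 12.3 to 17.4 (12 to 19 deposited counts). These were 2 of 15 sets of 4 tumors (5 markers in 3 groups) searched for 1 distant tumor, on scaled counts without logs. For normally distributed values chance alone flags about 5% of sets, or 0.75 here. Skewed counts can be flagged more often, so no excess of distant tumors is read from the 2.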

How the results depend on the processing

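The number of markers called in GLA-SE against PBS was 4, stayed at 4 or 5 without any 1 tumor, and was 2 under TMM scaling. Under the panel median it was 3, namely S100a8 and Fpr2 higher and Camp lower, and with a replicate block 3, with Trem1 lost (adjusted p = 0.0523). In GLA-SE against SE the count of 1 became 0 under the panel median, TMM or a replicate block, 2 with all 12 tumors in 1 fit, with both DESeq2 scales or without rescaling, and 0 to 1 without any 1 tumor. In SE against PBS it was 0 under every setting run.

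Over the panel, GLA-SE against PBS had 516 genes called (513 higher, 3 lower), 316 under TMM (148 higher, 168 lower), 255 with all 12 tumors in 1 fit, 368 under the panel median (61 higher, 307 lower), 346 with DESeq2's own size factors (193 higher, 153 lower) and 368 without rescaling (351 higher, 17 lower). In GLA-SE against SE, 16 became 0 under the panel median or the replicate block, 3 under TMM, 79 with all 12 tumors, 118 and 80 with DESeq2 on the reference gene and its own scale, 89 without rescaling, and 4 to 105 without any 1 tumor, the last without SE replicate 4. In SE against PBS, 0 became 53 and 12 with the 2 DESeq2 scales.

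Values that changed sign were these. Camp in GLA-SE against PBS was -0.69 under the panel median, -0.31 under TMM and -0.26 with DESeq2's own size factors, in GLA-SE against SE -0.15 under the panel median, and in SE against PBS 0.051 without SE replicate 3, with a range of -0.30 to 0.051 over the tumors left out. Cebpb in GLA-SE against SE was -0.11 under the panel median. Trem1 in SE against PBS was -0.18 under the panel median, -0.073 under TMM, -0.027 with DESeq2's own size factors, -0.019 without rescaling and -0.18 without SE replicate 4, with a range of -0.18 to 0.79 over the tumors left out. The cause was not tested.

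Replicate numbers did not pair tumors: deviations of tumors with the same number correlated at -0.25 to 0.18, and the replicate block moved the panel's calls in GLA-SE against PBS to 437 higher and 2 lower. Counts near 20 limit Trem1 and Camp, 4 tumors a group limit every marker, and the scale limits the direction of small changes.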
